A study of Mus musculus with 6 samples.

Results

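The 36 genes described here encode the contractile proteins, the calcium-handling proteins and a few metabolic enzymes of skeletal muscle. They were chosen by name, though with earlier results of these data known, and make up 36 of the 55421 mouse genes in the deposited count table. Of these, 34 are named in the authors' scaled table, and Mb and Tnnc2 were matched in the count table by gene ID through the reference names. By role they were split into 14 fast-fibre genes, 7 slow-fibre genes, 11 genes shared by all fibres and 4 metabolic genes. RNA was measured in 6 femur libraries of C57BL/6 mice aged 12 weeks with the genotype given as WT, 3 from untreated controls and 3 after phlebotomy, the removal of blood. The RNA came from femur fractions in which osteocytes, which live inside the mineralised matrix, had been enriched. The deposited columns carry only an initial and a number (1, 2 or 4); P was read as phlebotomy and N, by elimination, as control, and each library keeps its column's number here. The time between blood removal and sampling is not given in the sources used here. The labels do not say whether each library came from a separate animal, so p-values measure only the spread between these libraries, which may be technical.

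Skeletal muscle contracts when myosin filaments pull on actin filaments inside the sarcomere, and calcium released from the sarcoplasmic reticulum starts the pull by binding troponin C. Fast and slow fibres use different genes for most of these parts, so that the ratio of the fast to the slow partner is a common guide to fibre type. A femur carries attached muscle, and Acta1 and Ckm are among the most abundant transcripts of that tissue, which makes these genes a measure of how much muscle a bone preparation still holds.

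The libraries held 11219243 to 19015588 gene counts, and all 36 muscle genes together took only 680, 1217 and 1051 of them in control 1, 2 and 4. In phlebotomy 1, 2 and 4 they took 1214, 948 and 1368 counts. In CPM (counts scaled to a common library total), this was 60.6 in control 1 (95% Clopper-Pearson interval 56.1 to 65.3), the lowest, and 92.1 in phlebotomy 4 (87.3 to 97.1), the highest. These intervals reflect counting error alone, since reads lacking molecular identifiers do not each stand for a separate molecule. On the scale used from here on, CPM adjusted by the trimmed mean of M values (TMM-scaled CPM), the sum was 67.8 ± 2.23 CPM in control and 73.3 ± 12.3 CPM after phlebotomy (SD, n = 3). Phlebotomy 2, at 61.5 CPM, lay below all controls, and phlebotomy 1 and 4, at 72.4 and 86.1 CPM, above them. The 12 osteocyte markers of the same libraries summed to 41559 ± 14738 CPM in control and 23055 ± 6797 CPM after phlebotomy. Of this, Dmp1 alone held 34217 ± 13475 and 18247 ± 5952 CPM. The muscle genes were thus a trace beside the genes that define the labelled cells. In bulk RNA, fewer cells of a type and less RNA per cell cannot be told apart.

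Few of the muscle genes carried these counts. The 9 with the most counts (Ttn, Pygm, Des, Eno3, Tnnt1, Ryr1, Tnnc1, Mylpf and Acta1) held 75.8% of the 6478 counts, and 24 of the 36 averaged under 1 CPM over the 6 libraries. A library total of 3 counts corresponded to 0.163 to 0.295 TMM-scaled CPM, and 9 of the 36 genes had no count in at least 1 library. Ckm, the muscle creatine kinase that buffers ATP, was among these. It was at 0, 0.381 and 0.201 CPM in control 1, 2 and 4 and at 0.775, 0.324 and 0.755 CPM in phlebotomy 1, 2 and 4. Acta1, the skeletal alpha-actin of the thin filament, stood at 2.36, 4.63 and 2.61 CPM in the controls and 4.0, 3.11 and 3.08 CPM after phlebotomy, and the groups overlapped.

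**Figure D1:**
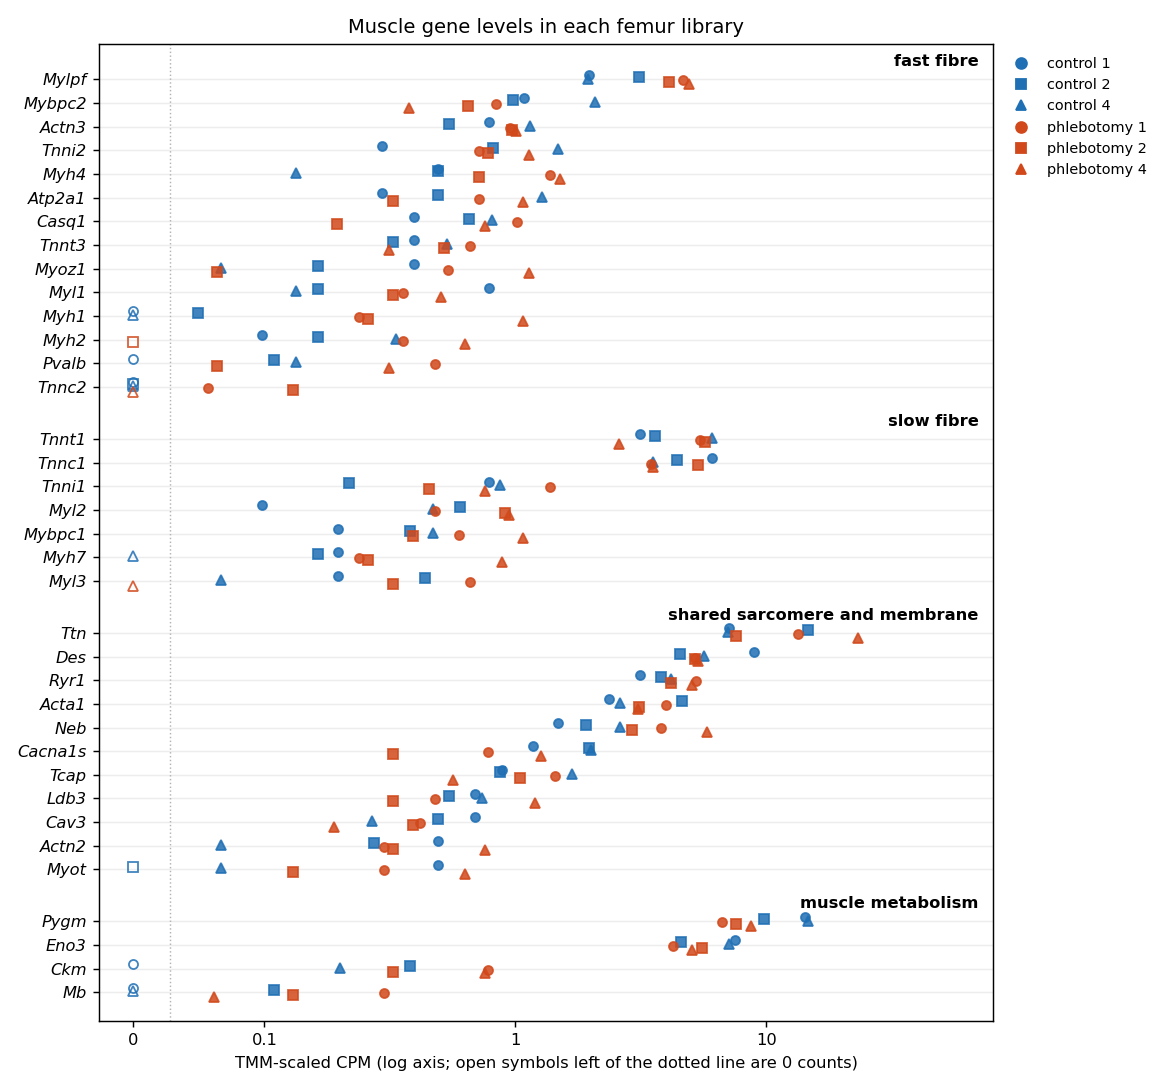
Level of each of the 36 muscle genes in each library, as TMM-scaled CPM on a log axis, with controls in blue and phlebotomy libraries in red; open symbols left of the dotted line mark libraries with 0 counts. Pygm and Mybpc2 are lower in all phlebotomy libraries, Mylpf, Neb, Ryr1, Myh4, Myh1 and Myh7 higher, and Ttn spans 7.03 to 23.2 CPM. Myh7 separates narrowly and on few counts, at 0.196 CPM in control 1 and 0.239 CPM in phlebotomy 1.

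Olfactory and vomeronasal receptor genes, which serve in the sensory cells of the nose, were used as a measure of background reads. That they have no role in bone was assumed and not tested. Their 939 protein-coding members in the annotation held 0.0267, 0.0286 and 0.0251 CPM per kb of exon in control 1, 2 and 4. After phlebotomy they held 0.0518, 0.0304 and 0.0777 in libraries 1, 2 and 4. This background was therefore raised in phlebotomy 1 and 4 and close to the controls in phlebotomy 2. Averaged over the 6 libraries, single receptor genes had a median of 0.0222 and a maximum of 0.583 CPM per kb. Whether a few of them carried the rise was not tested. The median muscle gene lay above the pooled receptor level by 5.52 to 8.39 times in the controls and by 4.93, 4.64 and 3.18 times in phlebotomy 1, 2 and 4. Averaged over libraries, 31 of the 36 muscle genes exceeded the 95th percentile of the receptor genes, 0.0935 CPM per kb. The 5 that did not were the fast genes Myh1, Myh2 and Tnnc2, the slow gene Myh7 and Mb, which encodes the oxygen store myoglobin. Ttn and Neb, which have very long transcripts, lay just above that mark at 0.104 and 0.116 CPM per kb.

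Per kb of exon, the highest levels belonged to Tnnc1 (4.22 CPM per kb), Eno3 (3.25) and Mylpf (3.24), and Pygm followed at 3.19. The 250 bases upstream of their RefSeq start sites (GRCm38.p6, all on the plus strand) are shown for the top 3, at chr14:31208062-31208311, chr11:70656926-70657175 and chr7:127211358-127211607. None of these windows overlaps an exon of GENCODE M21. Capitals mark every match to CANNTG, the E-box bound by myogenic factors such as MyoD, which reads the same on both strands.
Tnnc1: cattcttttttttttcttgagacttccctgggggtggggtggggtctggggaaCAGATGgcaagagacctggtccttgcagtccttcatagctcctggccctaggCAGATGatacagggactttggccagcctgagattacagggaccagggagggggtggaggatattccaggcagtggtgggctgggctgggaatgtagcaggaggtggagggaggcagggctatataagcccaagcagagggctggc
Eno3: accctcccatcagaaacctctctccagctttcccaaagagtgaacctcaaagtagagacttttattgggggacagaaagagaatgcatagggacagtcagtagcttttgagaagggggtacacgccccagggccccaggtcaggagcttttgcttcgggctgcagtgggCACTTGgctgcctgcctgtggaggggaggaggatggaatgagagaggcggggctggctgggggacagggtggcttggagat
Mylpf: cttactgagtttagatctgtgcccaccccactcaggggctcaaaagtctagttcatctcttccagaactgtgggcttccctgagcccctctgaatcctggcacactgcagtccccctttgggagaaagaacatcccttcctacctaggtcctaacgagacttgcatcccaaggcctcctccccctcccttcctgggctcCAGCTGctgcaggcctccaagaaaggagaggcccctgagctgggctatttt
Tnnc1 has 2 E-boxes, Eno3 has 1 and Mylpf has 1, and that of Mylpf is of the CAGCTG form. Of the 29 muscle genes matched in the promoter table, 24 held a CANNTG in these 250 bases, a share of 82.8% against 66.2% of all 32851 windows in the table. CAGCTG, a subset of CANNTG, occurred in 14 of the 29 (48.3%) and in 13.0% of all windows. The MEF2 and CArG motifs, searched by their consensus on both strands, each occurred in 4 of the 29 (13.8%), against 2.9% and 1.5% of all windows. The 29 windows are not all free of exons or close to the annotated gene start. The RefSeq starts of Myl3, Tnni1, Myl2, Ckm and Mylpf lay 21817, 19987, 7762, 6318 and 2718 bases from the GENCODE start. Annotated exons filled all 250 bases of the Mb window and 188 of those of Mybpc1. The motif matches describe the sequence and do not show binding.

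Of the 36 genes, 19 passed the filter on low counts, and 0 of these changed after phlebotomy in edgeR's quasi-likelihood test at an adjusted p under 0.05. Over all 18838 genes tested, 0.0159% were called higher and 0% lower. Limma-voom likewise called 0 of the 19, and DESeq2 called 0 of the 4 to which it gave an adjusted p (Ttn, Des, Eno3 and Pygm); it left that p empty for the other 15. At an unadjusted p under 0.05 in edgeR, 3 were higher (Mylpf, Neb and Myh4) and 3 lower (Pygm, Cacna1s and Mybpc2), against 7.01% and 9.42% of all genes tested. Of these, Myh4 held 5, 9 and 2 counts in the controls and 23, 11 and 24 after phlebotomy. It thus passed the filter only through the group where it is high, and its place among the higher genes was partly fixed by that. In DESeq2 5 of the 19 had an unadjusted p under 0.05, and in limma-voom 6, against 2838 and 2987 of all 18838 genes. At an adjusted p under 0.05, DESeq2 called 285 of all genes and limma-voom 0. The median log2 fold change of the 19 was 0.062, with 11 positive and 8 negative, beside -0.0028 and 49.8% positive over all genes tested. That median was -0.039 without control 2 and 0.41 without control 4, so its sign rests on single libraries. The other 17 were too low to test in this fit, and some of them, such as Myh1, were near 0 in control. Without the filter all 36 could be fitted, and 0 were called, while 6 were higher and 3 lower at an unadjusted p under 0.05 in edgeR. In that fit 5.78% and 5.45% of all genes were higher and lower by the same rule. Its median was 0.33 over the 36 genes and 0.18 over all 46504 genes with a count. It called 1.24% of all genes and gave 58.4% a positive fold change. Among the 19 tested genes the groups did not overlap for 4 higher and 2 lower, against 10.1% and 11.2% of all genes tested (21.3% in either direction). Over the 36 this held for 6 higher and 2 lower, against 9.06% and 5.31% of genes with a count. Myh4 is among the higher genes in both of these counts. At an unadjusted p under 0.05 in either direction, 16.4% of all genes tested passed.

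**Figure D2:**
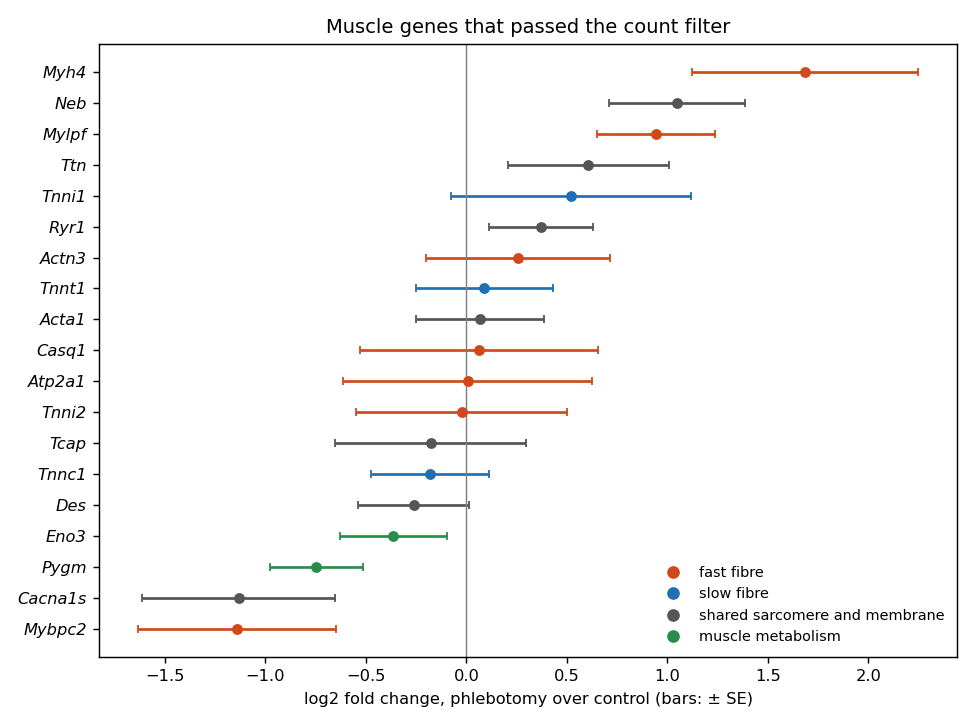
log2 fold change after phlebotomy of the 19 muscle genes that passed the count filter, with bars for ± SE and colours for the role of each gene. Values run from -1.14 for Mybpc2 to 1.69 for Myh4, and none passed at an adjusted p under 0.05 in edgeR. Myh4 passed the count filter only through its phlebotomy libraries.

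Myosin heavy chains, the motors of the thick filament, were nearly absent. Myh4, the chain of the fastest fibres (chromosome 11, 67238029 to 67260446 on GRCm38), was at 0.491, 0.490 and 0.134 CPM in control 1, 2 and 4 and at 1.37, 0.714 and 1.51 CPM in phlebotomy 1, 2 and 4. The lowest phlebotomy library exceeded the highest control, with a log2 fold change of 1.69 ± 0.56 (SE) and an edgeR adjusted p of 0.202. The values rest on 16 counts in control and 58 after phlebotomy. The gene passed the count filter only through its phlebotomy libraries, where it is high. Myh1, the chain of fast IIx fibres, had 1 control count and 25 phlebotomy counts, 17 of the latter in phlebotomy 4. Scaled for library size its ratio was 22.6, with a 95% exact counting interval of 3.70 to 929. Myh7, the slow and cardiac chain, had 5 and 22 counts, and 14 of the 22 were again in phlebotomy 4. Phlebotomy 1 and 2 held 4 counts each, against 2, 3 and 0 in control 1, 2 and 4. Its groups thus separated by very few counts. Myh2, of fast IIa fibres, had 9 and 16 counts and overlapped between the groups. Phlebotomy 4 was the highest library for all 4 chains and also the library with the highest receptor background. Per kb of exon, Myh4 stood at 3.05, 2.85 and 0.886 times that background in control 1, 2 and 4 and at 4.40, 3.90 and 3.23 times in phlebotomy 1, 2 and 4. The part of the background in these counts was not tested. The chains are close copies. Of the 126-base stretches, 9.19% of those of Myh1 transcripts, 5.12% of those of Myh2 and 1.83% of those of Myh4 also occur in another gene. For Myh7 the share is 6.6%. Reads may thus be split between genes. The gene that shares most with Myh1 is not a chain but the antisense gene Myhas (4.29%). For Myh2 and Myh4 it is Myh1 (3.24% and 1.07%), and for Myh7 it is Myh6 (5.35%).

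Light chains bind the neck of myosin. Mylpf, the regulatory light chain of fast fibres (chromosome 7, 127208890 to 127214298), was the most abundant fast-fibre gene. It was at 1.96, 3.10 and 1.94 CPM in control 1, 2 and 4 and at 4.65, 4.09 and 4.91 CPM in phlebotomy 1, 2 and 4. The groups did not overlap, and the log2 fold change was 0.94 ± 0.29 (SE, edgeR adjusted p 0.191). Unlike Myh4, Mylpf stood far above the receptor background, at 69.2 to 102 times per kb in control and 59.5 to 126 times after phlebotomy. On this scale its groups overlapped, but the ratio divides by a background that was raised in phlebotomy 1 and 4. It therefore does not show how many Mylpf counts were background. Its slow counterpart Myl2 had 56 counts in all and the essential light chains Myl1 (fast) and Myl3 (slow) 32 and 27. For these 3 the groups overlapped, and none passed the filter.

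Troponin is the calcium switch of the thin filament, made of a tropomyosin-binding subunit T, a calcium-binding subunit C and an inhibitory subunit I. The slow subunits Tnnt1 and Tnnc1 were among the most abundant muscle genes. Tnnc1, which is also the cardiac form, was at 6.09, 4.41 and 3.55 CPM in control 1, 2 and 4 and at 3.46, 5.32 and 3.52 CPM in phlebotomy 1, 2 and 4. Tnnt1 was at 3.14, 3.59 and 6.09 CPM in the controls and at 5.43, 5.71 and 2.58 CPM after phlebotomy. Both overlapped between groups, with log2 fold changes of -0.18 ± 0.29 and 0.09 ± 0.34 (SE; edgeR adjusted p 0.783 and 0.916). The fast troponin T gene Tnnt3 had 42 counts in all, against 409 for Tnnt1. Fast troponin C, Tnnc2, had 3 counts, against 392 for Tnnc1. However, 74.0% of the exon length of Tnnc2 lies in annotated exons of Ube2c on the other strand, a cell-cycle gene with 8082 counts, and how shared reads were counted is not given in the sources used here. Troponin I went the other way, at 0.580 CPM per kb for the fast Tnni2 and 0.206 for the slow Tnni1.

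Set side by side per kb of exon, the fast and slow partners did not point to 1 fibre type. The fast partner was higher in all 6 libraries for Myh4 over Myh7 (3.88 times on average) and Mylpf over Myl2 (10.9 times). Actn3 was also above Actn2 in all 6 (3.20 times), but Actn2 was counted here among the genes shared by all fibres. The slow partner was higher in all 6 for Tnnt1 over Tnnt3 (6.95 times) and Tnnc1 over Tnnc2 (107 times, from 3 counts of Tnnc2). Tnni2 over Tnni1 and Mybpc2 over Mybpc1 were higher in 5 of 6, and Myl1 and Myl3 were each the higher in 3. These pairs share libraries and the fast and slow genes were counted at very different depths, so no test was made. Summed over the 14 fast and 7 slow genes per kb, the fast share was 33.2%, 43.2% and 43.3% in control 1, 2 and 4. It was 53.3%, 41.1% and 60.0% in phlebotomy 1, 2 and 4. The means were 39.9% ± 5.82 and 51.5% ± 9.57 (SD, n = 3), and phlebotomy 2 lay inside the control range. Few genes carried these sums. In control 1, Tnnc1 and Tnnt1 held 5.85 and 1.43 of the 7.71 CPM per kb of the slow genes. Mylpf held 1.85 of the 3.83 of the fast genes. In phlebotomy 4 Mylpf held 4.62 of 8.38, and Tnnc1 and Tnnt1 3.39 and 1.17 of 5.59. The libraries with the larger fast share, phlebotomy 1 and 4, were those with the raised receptor background. Mylpf stood at 84.6 and 59.5 times that background there, and the part of the background in the fast share was not tested.

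**Figure D3:**
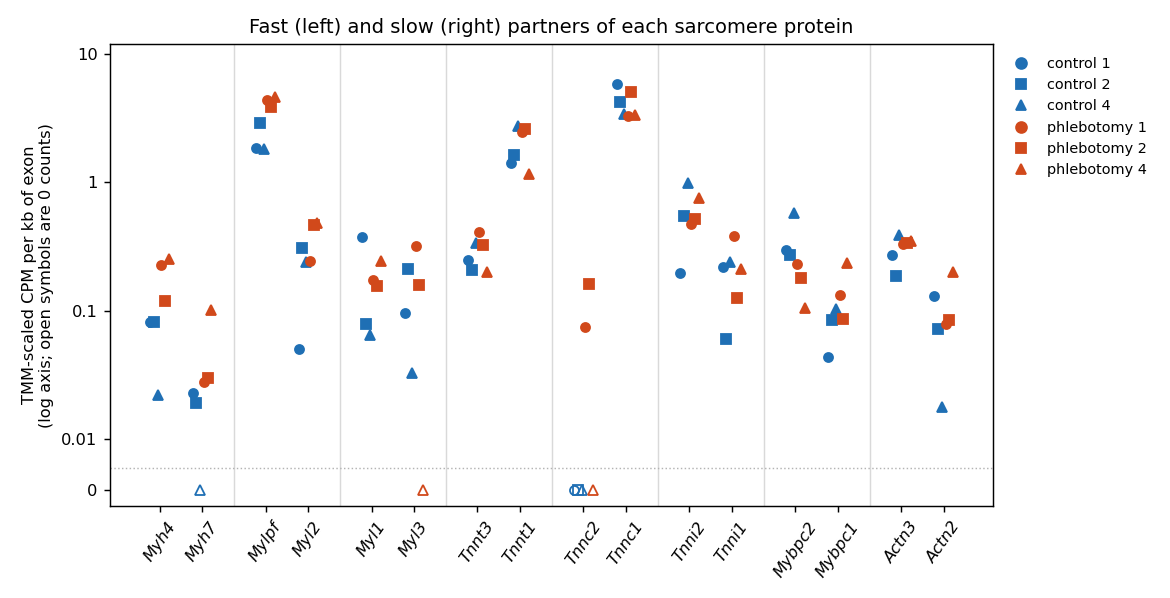
TMM-scaled CPM per kb of exon, on a log axis, for the fast (left) and slow (right) gene of 8 sarcomere proteins in each library, with controls in blue, phlebotomy libraries in red and open symbols for 0 counts. Mylpf lies above Myl2 in all libraries, while Tnnt1 and Tnnc1 lie above Tnnt3 and Tnnc2. Actn2, drawn at the right of Actn3, is one of the genes shared by all fibres and not a slow-fibre gene.

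Among the genes that build the filament lattice, Neb had values without overlap between the groups but did not pass the test. Neb encodes nebulin, the ruler of the thin filament, and was at 1.47, 1.90 and 2.61 CPM in control 1, 2 and 4 and at 3.82, 2.92 and 5.79 CPM in phlebotomy 1, 2 and 4. Its log2 fold change was 1.05 ± 0.34 (SE, edgeR adjusted p 0.199). Ttn, the spring of the sarcomere and the gene with the most counts (1154) over 116825 bases of exon, was at 7.07, 14.6 and 7.03 CPM in the controls and 13.3, 7.59 and 23.2 CPM after phlebotomy. Those groups overlapped (log2 fold change 0.61 ± 0.40 SE, edgeR adjusted p 0.472). Ttn came to 0.12 without phlebotomy 4 and 1.03 without control 2, on the log2 scale. Relative to the receptor background per kb, Ttn was at 2.26, 4.37 and 2.39 times in control 1, 2 and 4 and at 2.20, 2.14 and 2.56 times in phlebotomy 1, 2 and 4. Neb was at 2.07 to 3.91 times in control and 2.77 to 3.61 times after phlebotomy. On this scale, whose divisor was raised in phlebotomy 1 and 4, the groups of Neb overlapped. The part of the background in either gene was not tested.

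Des, the intermediate filament that ties myofibrils together and is also made by smooth muscle, was at 6.36 ± 2.30 CPM in control and 5.24 ± 0.0924 CPM after phlebotomy (SD, n = 3). Its log2 fold change was -0.26 (edgeR adjusted p 0.655). Of the remaining Z-disc genes, Actn3 (the fast alpha-actinin) and Tcap (the cap of titin) passed the filter, with log2 fold changes of 0.26 and -0.18. Actn2, Ldb3, Myot and Myoz1 had 23 to 60 counts each and did not pass it. Mybpc2, the fast myosin-binding protein C, was at 1.08, 0.979 and 2.07 CPM in control 1, 2 and 4 and at 0.835, 0.649 and 0.378 CPM in phlebotomy 1, 2 and 4. It was lower in every phlebotomy library (log2 fold change -1.14 ± 0.49 SE, edgeR adjusted p 0.271), while the slow Mybpc1 had 16 counts in control and 33 after phlebotomy. Fast-fibre genes thus lay on both sides of 0, Myh4 and Mylpf above and Mybpc2 below, and their median was 0.062 over the 7 tested. That of the slow genes was 0.090 over the 3 tested, and with a library left out both medians took either sign (-0.16 to 0.56 for fast, -0.14 to 0.64 for slow).

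Of the genes that release and recapture calcium, 4 of 6 passed the filter. Ryr1, the calcium release channel, was at 3.14, 3.81 and 4.15 CPM in control 1, 2 and 4 and at 5.25, 4.15 and 5.03 CPM in phlebotomy 1, 2 and 4. The groups did not overlap, though phlebotomy 2 exceeded control 4 only narrowly (log2 fold change 0.37 ± 0.26 SE, edgeR adjusted p 0.488). Relative to the receptor background per kb, Ryr1 was at 5.38, 6.11 and 7.56 times in the controls and 4.64, 6.25 and 2.97 times after phlebotomy. The groups overlapped on this scale, whose divisor was raised in phlebotomy 1 and 4. Cacna1s, the voltage sensor that opens Ryr1 in muscle, differed in the other direction. It was at 1.18, 1.96 and 2.01 CPM in the controls and 0.775, 0.324 and 1.26 CPM after phlebotomy, with phlebotomy 4 above control 1 (log2 fold change -1.13 ± 0.48 SE, edgeR adjusted p 0.266). Atp2a1, the fast calcium pump, and Casq1, the calcium-binding protein of the reticulum, had log2 fold changes of 0.0060 ± 0.62 and 0.06 ± 0.59 (SE). Pvalb, a soluble calcium buffer of fast fibres, and Cav3, the caveolin of the muscle membrane, had 18 and 36 counts in all. Exons of Atp2a1 overlap those of Rabep2 on the other strand over 21.9% of their length, and those of Cacna1s overlap the antisense gene Gm37759 over 19.98%, which makes the counts of both uncertain.

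The 4 metabolic genes split between high and near 0. Pygm, the muscle form of glycogen phosphorylase (chromosome 19, 6384399 to 6398459), was at 14.2, 9.74 and 14.7 CPM in control 1, 2 and 4 and at 6.68, 7.59 and 8.69 CPM in phlebotomy 1, 2 and 4. It was lower in every phlebotomy library, and its log2 fold change of -0.75 ± 0.23 (SE) had the smallest p of the 19 genes (edgeR adjusted p 0.186). Pygm stood at 106 to 181 times the receptor background per kb in control and at 34.7 to 77.5 times after phlebotomy, without overlap. This ratio, too, is lowered by the raised background of phlebotomy 1 and 4. Eno3, the muscle enolase of glycolysis, was at 7.46, 4.57 and 7.09 CPM in the controls and 4.23, 5.51 and 5.03 CPM after phlebotomy, with overlapping groups (log2 fold change -0.36 ± 0.26 SE, edgeR adjusted p 0.504). Ckm and Mb, described above, held 40 and 10 counts over the 6 libraries, against 910 for Pygm and 502 for Eno3. Antisense genes overlap both, A930016O22Rik over 15.5% of the exon length of Ckm and Gm49540 over 27.6% of that of Mb. This makes the counts of Ckm and Mb uncertain as well. Per kb of exon, Pygm at 3.19 and Eno3 at 3.25 CPM thus stood well above Ckm at 0.139 and Mb at 0.0670.

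**Figure D4:**
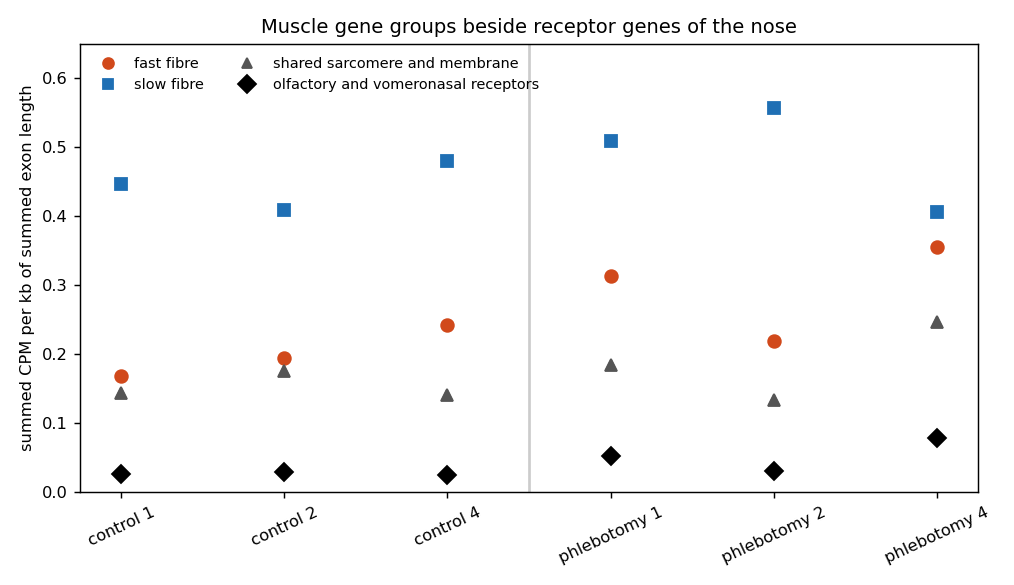
Summed TMM-scaled CPM per kb of summed exon length of the fast-fibre, slow-fibre and shared muscle genes in each library, beside the same for 939 olfactory and vomeronasal receptor genes. The receptor level is highest in phlebotomy 4 (0.0777) and phlebotomy 1 (0.0518), where the fast-fibre level is also highest (0.356 and 0.313).

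Further lists of muscle genes were examined beside the 36. Of 62 other skeletal muscle genes 34 passed the filter, and 0 changed in edgeR. At an unadjusted p under 0.05, 3 of the 34 were higher and 5 lower, beside the 7.01% and 9.42% of all genes tested, and the median log2 fold change was -0.11. The most abundant of them, Atp2a2, Tpm3 and Fbxo32, are also made outside muscle and reached 451 ± 78.7, 393 ± 17.6 and 108 ± 21.7 CPM in control (SD, n = 3). Xirp1, an actin-binding protein of muscle, had the smallest p (26.4 ± 10.6 CPM in control against 14.1 ± 2.54, a log2 difference of -0.90; edgeR adjusted p 0.170). Myh8, the perinatal heavy chain, was at 0.505 ± 0.134 and 1.43 ± 0.345 CPM (a log2 difference of 1.46; edgeR adjusted p 0.192). Myh8 is 1 of the 3 higher genes, but it passed the filter only through its phlebotomy libraries, where it is high. Its place among them was thus partly fixed by the filter. Hspb7, a small heat-shock protein, was at 33.4 ± 9.995 and 19.1 ± 6.83 CPM (a log2 difference of -0.80; edgeR adjusted p 0.218). Without the filter on low counts, Xirp1 and Hspb7 were called lower (edgeR adjusted p 0.00682 and 0.0141), where 1.24% of all genes were called in either direction.

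Myogenic regulators are the transcription factors that set up muscle cells. Of 14, 6 passed the filter, and 0 were called in edgeR at a median log2 difference of -0.52. At an unadjusted p under 0.05 in edgeR, 0 of the 6 were higher and 4 lower, beside 7.01% and 9.42% of all genes tested. The 6 were led by Mef2a, Mef2c and Mef2d, factors that many cells make, at 664 ± 215, 179 ± 11.7 and 120 ± 11.1 CPM in control (SD, n = 3). The genes that define muscle lineage cells, named here after their values were seen, had few counts over all 6 libraries: Myod1 6, Myf5 14, Myf6 16, Myog 9 and Pax7, the satellite cell factor, 14. Of 9 genes of the neuromuscular junction 5 passed the filter and 0 were called in edgeR. At an unadjusted p under 0.05, 0 of the 5 were higher and 2 lower, beside the same 7.01% and 9.42%. The acetylcholine receptor subunits Chrna1, Chrnd, Chrne and Chrng, likewise named after their values were seen, had 24, 6, 23 and 31 counts. Of these, Chrna1 had 4 in control and 20 after phlebotomy, and Chrng 4 and 27, so that the junction genes did not lie on 1 side. Fitted without the filter, 2 of the 9 were higher and 2 lower at an unadjusted p under 0.05 in edgeR, beside 5.78% and 5.45% of all genes. Dok7, an adaptor of that junction, was at 30.2 ± 8.53 CPM in control and 16.8 ± 4.40 CPM after phlebotomy (a log2 difference of -0.85; edgeR adjusted p 0.171). Mef2d and Dok7 were called lower without the filter (edgeR adjusted p 0.0421 and 0.0109), where 1.24% of all genes were called in either direction.

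Markers of other cells in or on the bone gave the levels against which the muscle genes can be read. The 10 cardiac genes summed to 11.2 to 19.3 CPM in control and 12.1 to 17.9 CPM after phlebotomy, with Nppa at 1 count and Myl7 at 3 counts in all. Of the cardiac sum, Myl4 held 12.3 ± 4.40 CPM in control and 9.80 ± 1.38 CPM after phlebotomy (SD, n = 3). Smooth muscle genes (10) summed to 914 to 1284 and 810 to 937 CPM, of which Tpm1, made by many cells, held 956 ± 165 and 781 ± 46.9 CPM (SD, n = 3). Of the 10, 7 passed the filter, and 0 changed in edgeR (0 higher and 1 lower at an unadjusted p under 0.05). Smtn, the smooth muscle protein smoothelin, was called lower without the filter (log2 difference -0.77, edgeR adjusted p 0.0148). Tendon genes (8) summed to 1368 to 1774 and 609 to 859 CPM, but the immediate early gene Egr1 held 1417 ± 206 and 691 ± 106 CPM of this. Tnmd, the tendon-specific tenomodulin, was at 7.49 ± 3.48 and 4.68 ± 1.45 CPM. Adipocyte genes (7) summed to 272 to 478 and 242 to 448 CPM, periosteal genes (9) to 1606 to 2060 and 1184 to 2436 CPM, and Schwann cell genes (5) to 125 to 158 and 98.2 to 135 CPM. Of the periosteal sum, Ctsk, a protease that is also in the osteoclast list, held 617 ± 166 CPM in control and 1109 ± 626 CPM after phlebotomy (SD, n = 3). Osteoblast genes (9) reached 62032 to 94742 CPM in control and 36118 to 63375 CPM after phlebotomy. The marrow lists were high as well, with erythroid genes (14) at 13721 to 30389, neutrophil genes (11) at 20131 to 47702, osteoclast genes (8) at 1047 to 3190 and B cell genes (9 of 10 found) at 206 to 341 CPM over the 6 libraries. No tested member of these lists passed in edgeR at an adjusted p under 0.05. At an unadjusted p under 0.05, 8 of 12 osteocyte, 4 of 9 osteoblast, 5 of 8 periosteal, 3 of 9 B cell and 1 of 6 tendon genes were lower, and 5 of 14 erythroid and 3 of 11 neutrophil genes higher, beside 9.42% lower and 7.01% higher of all genes tested. Without the filter, 5 osteocyte, 4 periosteal, 2 osteoblast, 2 B cell and 1 tendon gene were called lower and 3 erythroid and 2 neutrophil genes higher in edgeR, beside 1.24% of all genes. None of the cardiac, adipocyte, osteoclast or Schwann cell genes passed that mark. The part of any of these cells in the counts of the 36 muscle genes was not tested.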

How the data were processed

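Transcripts were counted in 6 femur libraries, 3 from control and 3 from phlebotomy. Per the labels' protocols, the Nextera XT method was used, in which strand is not kept, with paired reads of 126 bases. STAR (2.5.2a and 2.7.3a), the builds mm10 and GRCm38.p3, and limma, edgeR and DESeq2 appear, without roles, per the submitters' processing notes. The counting program is not given in the sources used here. The authors deposited these tables: unnormalized counts per gene, those counts after a filter, and a scaled signal, which by its name is CPM adjusted by TMM. Left out were 19 rows without a mouse gene, with 0.00278% to 0.0284% of a library's counts. The muscle genes and all lists were chosen with earlier results of these data known. The rule names all 36 genes and, of each other list, up to 4 genes by smallest p and 3 by level.

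After filterByExpr (minimum count 10) and TMM scaling, edgeR 4.0.16 (R 4.3.3) gave quasi-likelihood tests, with Benjamini-Hochberg adjustment over all 18838 genes and a threshold of 0.05. SEs were approximated from the F statistic. Levels per kb use the union of exons in GENCODE M21 (GRCm38), in which 99.7% of gene IDs were found. The receptor genes and the 95th percentile were chosen after seeing the data. Alternatives were other scaling, other filters, DESeq2 1.42.0, limma 3.58.1 (voom; limma-trend on the scaled table, pseudocount 0.5 or 1), a block by column number, and each library left out in turn. The fit was tested on simulated data. Promoters are from RefSeq. Plots used Python 3.11.15 and matplotlib 3.10.9.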

Additional observations from a re-analysis of the deposited data

Results flagged for a closer look

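Rows of the count table that name no mouse gene, which no comparison used, held 0.0284% of the counts of phlebotomy 2, above the 0.00337% to 0.00361% of the controls. On the TMM scale phlebotomy 2 also had the lowest summed level of the 36 muscle genes, 61.5 CPM, while by library totals control 1 was lowest (60.6 against 62.9 CPM).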

How the results depend on the processing

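0 of the muscle genes were called under the 17 alternatives run. DESeq2 gave an adjusted p for only 4 of them, and the other 16 tested 19 to 36. The number of all genes changed, 3, became 577 with no filter, 20 over the authors' filtered genes, 285 in DESeq2 and 0 in limma-voom (2987 at an unadjusted p under 0.05). It was 0 without phlebotomy 1 (1529 at an unadjusted p under 0.05 in edgeR), 14 without control 2, 7 without control 4 and 963 without phlebotomy 2. The median log2 fold change of the muscle genes, 0.062, was 0.33 with no filter, 0.23 over the authors' filtered genes and -0.039 to 0.41 with a library left out. With no filter the fast-fibre median was 0.40 and the slow-fibre median 0.44, and the latter was 0.42 over the authors' filtered genes. With a library left out they ran from -0.16 to 0.56 and from -0.14 to 0.64. More genes enter with a weaker filter. By library totals alone the summed level of control 1 was 60.6 CPM. In counts without length scaling the fast share of control 1 was 39.4%.

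Genes near 0 changed sign. Acta1 was at -0.018 over the authors' filtered genes, Tnnt1 at -0.0062 and -0.0018 in limma-trend with pseudocounts of 0.5 and 1, and Atp2a1 at -0.070 with no filter, -0.092 over the authors' filtered genes and -0.0053 in limma-trend with a pseudocount of 1. Tnni2 was at 0.059 with upper-quartile scaling, 0.10 with library totals, 0.13 in limma-voom, 0.046 and 0.014 in limma-trend and 0.12 with the replicate block. Casq1 was at -0.018 with no filter, -0.036 over the authors' filtered genes, -0.17 in limma-voom, -0.062 and -0.031 in limma-trend and -0.080 with the replicate block. With a library left out the ranges were -0.11 to 0.42 for Acta1, -0.023 to 0.56 for Actn3, -0.14 to 0.41 for Tnnt1, -0.45 to 0.029 for Tnnc1, -0.39 to 0.53 for Tnni2, -0.49 to 0.037 for Des, -0.38 to 0.44 for Casq1, -0.42 to 0.75 for Atp2a1 and -0.49 to 0.18 for Tcap. The cause was not tested. Mylpf (0.68 to 1.19), Neb (0.70 to 1.25), Myh4 (0.64 to 1.99), Pygm (-0.95 to -0.61), Mybpc2 (-1.40 to -0.57) and Cacna1s (-1.64 to -0.67) kept their sign in all 17. Libraries of the same number did not deviate together (correlations -0.13, -0.10 and -0.077), so the numbers were not taken as pairs, and with the replicate block 3 genes were called in all, none of them a muscle gene. Totals of 3 counts for Tnnc2 and 26 for Myh1 limit what can be said of single genes.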

Other observations

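The 36 muscle genes, averaged on a centred log2 scale, lay at -0.14, -0.10 and -0.042 in control 1, 2 and 4 and at 0.15, -0.11 and 0.24 in phlebotomy 1, 2 and 4. Among 11422 other genes with at least 5 CPM, the 10 with the most similar profile over the 6 libraries were Rigi, Mdh1, Slc9b2, Pdik1l, AI987944, Gbp7, Pgk1, Egln3, Aldh9a1 and Ccr2, with Pearson's r from 0.975 to 0.998. This is a description over 6 points that share their libraries, chosen as the highest of 11422 values. None of the 10 is a sarcomere gene, but the 36 muscle genes and all genes under 5 CPM had been left out. This absence was thus partly fixed by the choice of genes.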
